A study of Mus musculus with 12 samples.

Results

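The genes described here copy the genome once per cell cycle. They are 43 genes of origin licensing, the replicative helicase, the replication fork and the supply of deoxynucleotides, picked as a pathway. The rule that picks them uses no measured value, but it was set with earlier results of these data known. They were matched by gene symbol in the platform annotation, which gave 90 probes of the 45281 on the array. Of the 43 genes, 42 passed a filter on dim probes and stood among 9388 genes tested; Pola1, the catalytic subunit of the polymerase that extends primers, had 1 probe that was above background on 0 of 12 arrays and was not tested.

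Replication starts in separate steps. In G1 the origin recognition complex, with Cdc6 and Cdt1, loads the MCM2-7 ring on DNA as an inactive double ring, a step called licensing that geminin blocks after S phase has begun. At the start of S phase cyclin E-Cdk2 and the kinase Cdc7-Dbf4 turn the loaded ring into an active helicase together with Cdc45 and the GINS complex, and primase, polymerases, the Pcna clamp and its loader follow. Erythroblasts divide several times while they mature, and excess cyclin E activity in other cells is known to disturb loading of the MCM ring.

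RNA came from mouse bone marrow erythroid cells sorted by FACS as Ter119-positive and CD71-high. The knock-in mice carried a cyclin E in which T74A and T393A remove phosphorylation sites read by the ubiquitin ligase subunit Fbw7, and the controls were wild type littermates; all were on strain background 129, and the labels give no treatment, age, sex or allele number for either group. The 12 Illumina bead arrays were 6 of each genotype, and adjacent array numbers, whose values moved together, were averaged as duplicates, which left wild type samples 1, 4 and 5 and knock-in samples 2, 3 and 6. Whether each sample is its own animal is not given in the labels. The p-values therefore rest on the spread of these 6 samples alone, part of which may be technical.

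Between 15988 and 18227 probes lay above background on each array, and the number of arrays limits the precision. Erythroid markers were present, with 10 of 13 listed genes measured, among them Hba-a1, Alas2, Klf1 and Tfrc, while Epb42 was above background on 0 of 12 arrays. Neutrophil and monocyte markers were present too: 12 of 13 listed genes were measured, and their mean log2 intensity ran from 12.48 to 13.02 in wild type and from 12.38 to 12.98 in knock-in samples. B lineage markers, of which 11 of 17 were measured and Vpreb2 and Pax5 were above background on 0 of 12 arrays, had mean levels of 8.02 to 8.66 in wild type and 7.37 to 7.53 in knock-in samples, with no overlap. Erythroid markers were higher in knock-in samples for 8 of 10 measured genes (median 0.24 on the log2 scale). Their median was -0.15 within arrays 1 to 4, and 0.42 and 0.56 in the later runs of 4 adjacent arrays. Of the 10 genes, 1 was higher in all 3 runs. Alas2 and Hba-a1 were lower in all 3 and differed by -0.23 and -0.16, and for Alas2 the genotypes did not overlap. Mast cell, basophil and eosinophil markers were lower for 7 of 7 and macrophage markers for 8 of 8. By limma 0 genes were called in each of these lists or in the B lineage list. With the runs of 4 adjacent arrays as a term in limma, 2 mast cell and basophil markers were called lower (Mcpt8 and Prss34, adjusted p = 0.0493 each) and 3 B lineage markers (Cd79b, 0.0267, and Blnk and Pou2af1, 0.0493 each). Of all genes, 0.266% were called lower in that fit. Marrow B cell progenitors and granulocyte progenitors divide as well and use the same replication genes, so the values below belong to the sorted mixture. Fewer cells of a type and less RNA per cell cannot be told apart in such bulk RNA, and the part of these other cells in the differences was not tested.

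Transcripts of the replication machinery were not called higher or lower in the sorted knock-in cells. By limma with Benjamini-Hochberg adjustment over all genes, 0 of 42 members passed in either direction, where 0.0852% of all genes passed as higher and 0% as lower. At an unadjusted limma p under 0.05 there were 3 members, 7.14% of them, beside 8.65% of all genes: Dbf4, the activating subunit of the Cdc7 kinase, was higher, and Pold1, the catalytic subunit of polymerase delta, and Rfc2, a subunit of the clamp loader, were lower. That is 2.38% of members higher beside 5.56% of all genes, and 4.76% lower beside 3.09%. The same 3 genes were the members whose genotypes did not overlap, beside 13.7% of all genes, of which 7.23% were higher and 6.47% lower. The median difference was 0.01 (log2, knock-in minus wild type), with 24 members higher and 18 lower, and the median over all genes was -0.03. The difference was under 0.5 in size for 41 of 42 members, and the 95% interval lay between -1 and 1 for 38 of them. The signs of such small differences depended on the scaling and on the weighting of arrays. Under 75th percentile scaling 35 of 42 members were higher, beside 57.2% of all genes, with a median of 0.22 against 0.03 for all genes. With array quality weights 19 of 42 members were higher, beside 40.5% of all genes. In the main fit 41.6% of all genes were higher.

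**Figure D1:**
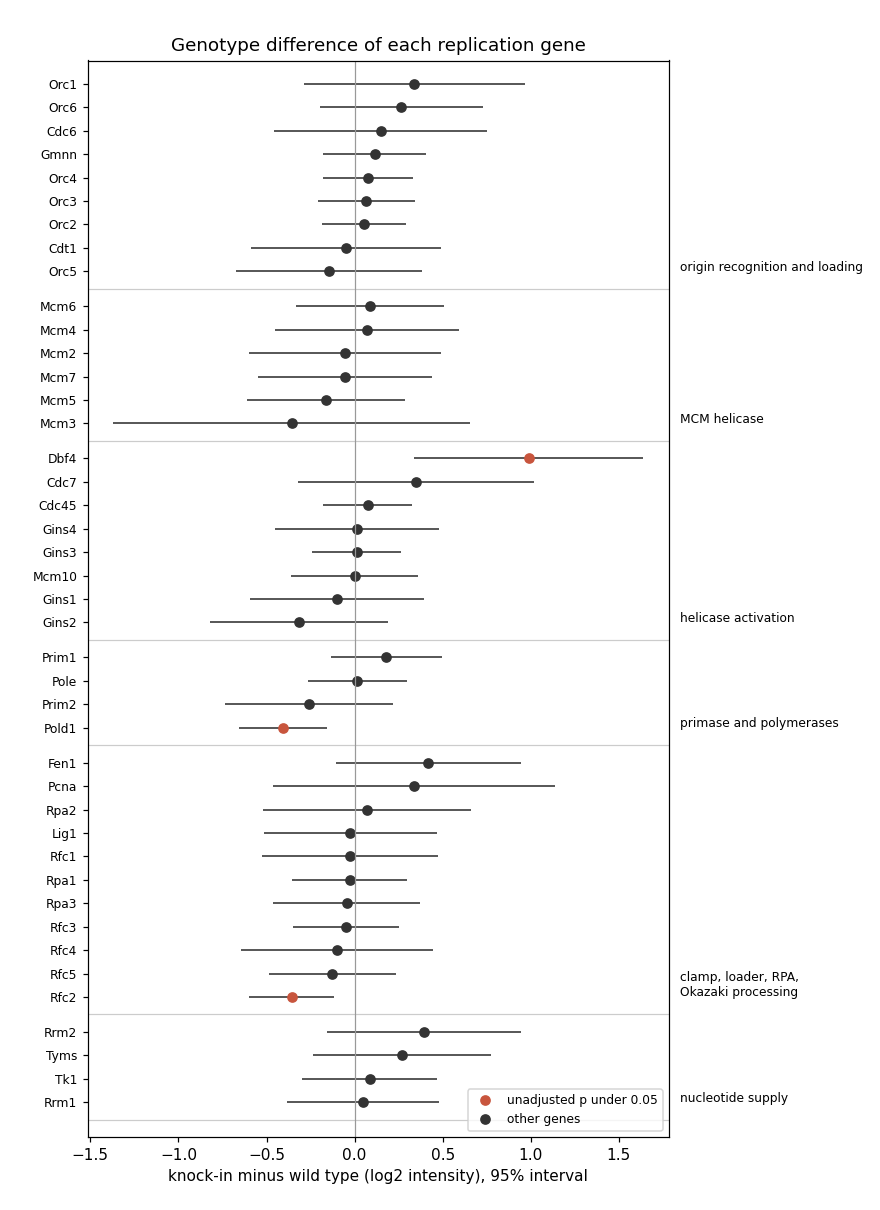
The difference between genotypes for the 42 measured genes, as knock-in minus wild type on the log2 intensity scale with its 95% interval from limma, grouped by role. Intervals of 39 genes include 0, and those of Dbf4, Pold1 and Rfc2 do not; none of the 3 passed adjustment over all genes.

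The role groups had different medians, all small. The nucleotide supply genes stood at 0.18, with 4 of 4 higher, and the 9 origin recognition and loading genes at 0.08, with 7 of 9 higher. Helicase activation genes stood at 0.01, with 6 of 8 higher, and the clamp, loader, RPA and Okazaki fragment group at -0.03, with 3 of 11 higher. The MCM helicase genes had a median of -0.05, with 2 of 6 higher, and the 4 measured primase and polymerase genes one of -0.12, with 2 of 4 higher. Each group's samples overlapped between genotypes, and differences between role groups were not tested.

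More of the variation lay between samples than between genotypes. The mean log2 intensity of the 42 members was 9.25, 8.88 and 8.97 in wild type samples 1, 4 and 5 and 9.10, 8.87 and 9.26 in knock-in samples 2, 3 and 6. Thus samples 1 and 6 were high and samples 3 and 4 low, 1 of each genotype in both cases. Of 42 members, 34 had their highest value in sample 1 or 6 and 30 their lowest in sample 3 or 4. Neutrophil and monocyte markers ran the other way, at 12.48 and 12.38 in samples 1 and 6 and 12.98 and 13.02 in samples 3 and 4. So did the 4 measured T and NK markers, at 7.57 and 7.41 in samples 1 and 6 and 7.99 and 7.95 in samples 3 and 4. Erythroid markers stood at 12.26 and 12.35 in samples 1 and 6 and 12.16 and 11.78 in samples 3 and 4. The part of these cell types in this pattern was not tested. The share of all genes with their highest and lowest values in these samples was not counted. Over all genes tested, the first principal component, the main axis of variation, held 44.4% of the variance. On it samples 3 and 4 stood at 20.52 and 21.35 and the other samples between -19.06 and -1.27. The split of samples 3 and 4 from the others was therefore not particular to the members. The SD over the 6 samples had a median of 0.26 for the members and 0.19 for all genes tested, and the members were brighter, with a median level of 9.22 against 7.29.

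**Figure D2:**
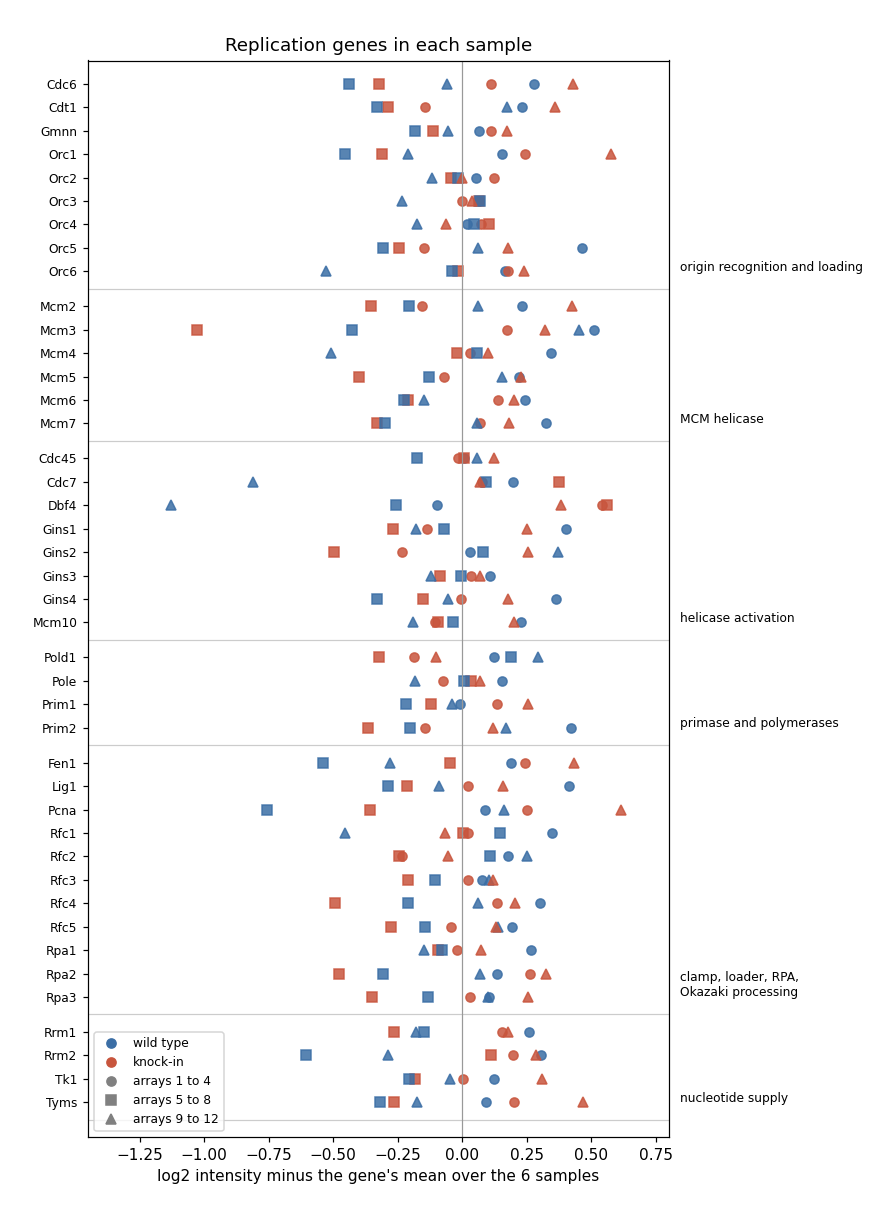
Log2 intensity of each measured gene in the 6 samples, minus that gene's mean, with colour for genotype and marker shape for the arrays of each sample. Squares, samples 3 and 4, lie mostly at the left in both colours, while the circle of wild type sample 1 and the triangle of knock-in sample 6 lie mostly at the right; for Dbf4 the 3 knock-in points lie to the right of the 3 wild type points.

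Each run of 4 adjacent arrays held 1 sample of each genotype, although nothing in the labels describes such a run as a litter, a day or a chip. Within arrays 1 to 4 the knock-in sample was higher for 11 of 42 members, with a median difference of -0.14. Within arrays 5 to 8 it was higher for 20, with a median of -0.01, and within arrays 9 to 12 for 36, with a median of 0.25. Medians over all genes in these 3 comparisons were -0.02, -0.02 and -0.03. The direction of the replication genes as a group therefore differed from one comparison to the next. All 3 comparisons agreed in sign for 15 members: 9 higher, 21.4% of members beside 16.3% of all genes, and 6 lower, 14.3% beside 23.5%. The 9 were Gmnn, Orc1, Orc4, Orc6, Dbf4, Prim1, Fen1, Pcna and Tyms, and the 6 were Mcm3, Gins2, Pold1, Prim2, Rfc2 and Rfc5. With the runs of 4 arrays as a term in limma, 0 members were called, beside 0.671% of all genes called higher and 0.266% lower.

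**Figure D3:**
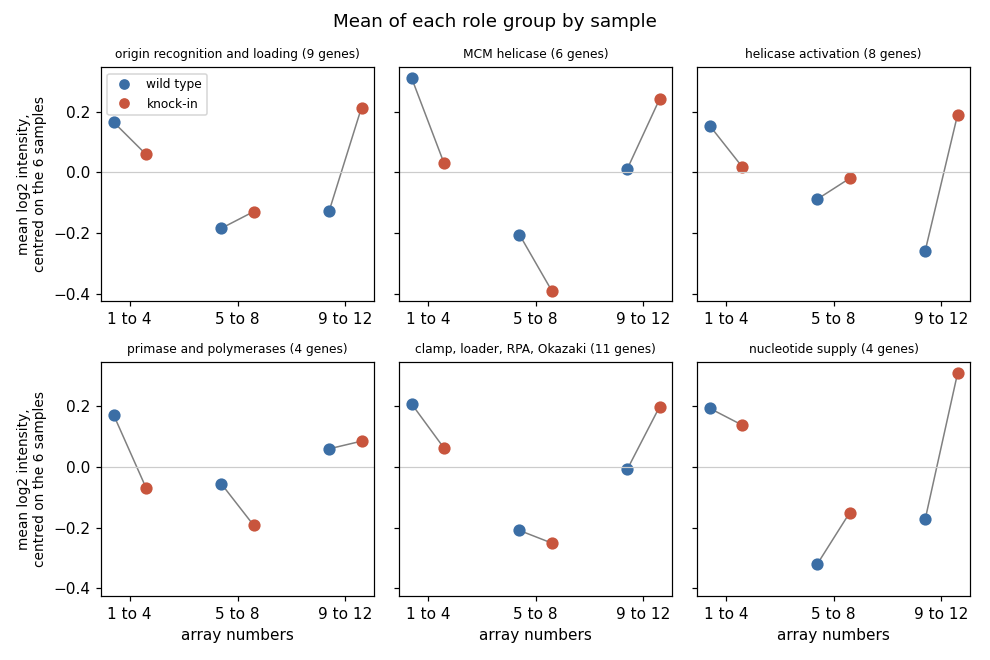
Mean log2 intensity of the measured genes of each role group in each sample, centred on the 6 samples, with lines joining the wild type and the knock-in sample of the same 4 adjacent arrays. In all 6 groups the line slopes down in arrays 1 to 4 and up in arrays 9 to 12, most steeply up in nucleotide supply, from 10.25 to 10.73, and helicase activation, from 8.56 to 9.00.

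Many genes of this machinery are known targets of E2F transcription factors, which bind words of the form TTTCCCGC, TTTGGCGC, TTTCGCGC or TTTGCCGC. Promoter sequences were available for 35 of the 43 genes from RefSeq (build GRCm38.p6), and the window from 250 bases before to 30 bases after the start was searched for these 4 words on both strands, which may overlap each other. At least 1 word was present for 10 of the 35 members, 28.6%, against 4.48% of the 7676 tested genes with a promoter and 2.45% of all 27025 genes of the table. By role, 4 of 5 MCM genes, 3 of 8 origin genes, 1 of 5 helicase activation genes, 1 of 3 polymerase genes, 1 of 10 clamp and loader genes and 0 of 4 nucleotide supply genes held one. The word CCAAT, on either strand, was present for 22 of 35 members, 62.9%, against 43% of the tested genes. A match describes these letters only. The sequences given are 3 promoters with E2F words, picked from genes that were high in samples 1 and 6. Tk1, Rrm1 and Lig1 were high in the same samples and held no E2F word. A link between the words and the sample pattern was not tested. Then follow those of Dbf4 and Pold1, which differed most in each direction and held neither word. Capitals mark the E2F words.
Mcm5, chr8:75109259-75109538, + strand: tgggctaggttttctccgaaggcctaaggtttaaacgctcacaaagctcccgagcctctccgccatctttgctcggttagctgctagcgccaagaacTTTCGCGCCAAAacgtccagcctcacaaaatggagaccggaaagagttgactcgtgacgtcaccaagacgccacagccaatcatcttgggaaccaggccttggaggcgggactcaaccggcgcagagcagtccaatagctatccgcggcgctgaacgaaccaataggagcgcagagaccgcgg
Mcm6, chr1:128359676-128359955, - strand: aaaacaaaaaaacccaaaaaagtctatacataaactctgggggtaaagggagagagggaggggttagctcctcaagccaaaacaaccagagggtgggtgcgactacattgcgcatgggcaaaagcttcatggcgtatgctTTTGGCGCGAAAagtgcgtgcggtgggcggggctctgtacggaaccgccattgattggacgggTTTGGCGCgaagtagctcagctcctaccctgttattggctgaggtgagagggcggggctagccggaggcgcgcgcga
Cdc6, chr11:98907901-98908180, + strand: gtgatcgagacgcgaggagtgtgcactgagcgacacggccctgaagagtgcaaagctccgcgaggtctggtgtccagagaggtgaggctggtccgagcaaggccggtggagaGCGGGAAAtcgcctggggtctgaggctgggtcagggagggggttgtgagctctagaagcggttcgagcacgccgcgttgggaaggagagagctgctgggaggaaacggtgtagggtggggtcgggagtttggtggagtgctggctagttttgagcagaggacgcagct
Dbf4, chr5:8422687-8422966, - strand: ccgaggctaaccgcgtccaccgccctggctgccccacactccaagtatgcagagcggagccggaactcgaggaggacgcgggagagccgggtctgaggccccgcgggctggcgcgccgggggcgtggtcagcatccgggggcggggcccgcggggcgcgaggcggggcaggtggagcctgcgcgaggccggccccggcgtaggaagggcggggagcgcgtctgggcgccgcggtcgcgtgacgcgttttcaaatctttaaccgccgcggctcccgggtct
Pold1, chr7:44548786-44549065, - strand: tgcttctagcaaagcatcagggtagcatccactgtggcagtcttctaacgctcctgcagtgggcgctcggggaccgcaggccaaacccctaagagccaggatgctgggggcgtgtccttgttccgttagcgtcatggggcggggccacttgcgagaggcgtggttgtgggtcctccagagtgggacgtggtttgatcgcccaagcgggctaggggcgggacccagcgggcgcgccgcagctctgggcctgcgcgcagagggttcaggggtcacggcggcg
In Mcm5 the overlapping words begin 153 and 149 bases before the start, in Mcm6 words begin at 110, 106 and 47 bases before it, and in Cdc6 the word begins 138 bases before it.

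In the origin recognition and loading group, 7 of 9 genes were higher in knock-in samples and 0 were separated between genotypes. Orc1, the large ATPase subunit of the complex, was 7.72, 7.11 and 7.36 in wild type samples 1, 4 and 5 and 7.81, 7.26 and 8.15 in knock-in samples 2, 3 and 6 (log2 intensity, in this order throughout). Its highest value was in knock-in sample 6, the genotypes overlapped, and the difference was 0.34 ± 0.26 (SE, 95% interval -0.28 to 0.96, limma adjusted p = 0.869). Orc6, the smallest subunit, needed for loading the MCM ring, was 10.29, 10.09 and 9.60 in wild type and 10.30, 10.11 and 10.36 in knock-in samples, differing by 0.27 ± 0.19. Wild type sample 5 was low and the other 5 samples lay close together; without that sample the difference was 0.07, so it rests on sample 5. The 4 other subunits, Orc2, Orc3, Orc4 and Orc5, differed by 0.05, 0.07, 0.08 and -0.14. Probes of Orc2 and Orc4 were dim, above background on 7 and 9 of 12 arrays, so their folds are understated.

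The loading factors differed by less than the spread of either genotype. Cdc6, the ATPase that joins the complex in G1, was 9.87, 9.16 and 9.53 in wild type and 9.71, 9.27 and 10.02 in knock-in samples, differing by 0.15 (95% interval -0.45 to 0.75). Cdt1, which brings the MCM ring, was 10.65, 10.09 and 10.60 against 10.28, 10.13 and 10.78, a difference of -0.05 (-0.58 to 0.49). Both genes were lowest in samples 3 and 4, whatever the genotype. Gmnn, which encodes the Cdt1 inhibitor geminin, was 6.44, 6.19 and 6.32 against 6.49, 6.26 and 6.55, a difference of 0.11 (-0.17 to 0.40). The Gmnn probe was dim, so this difference is understated. Over the settings with all samples it ran from 0.09 to 0.49. Within each run of 4 arrays Gmnn was slightly higher in the knock-in sample, by 0.05, 0.07 and 0.23; the SD of the 3 wild type samples was 0.12. Under 75th percentile scaling the sign of Cdt1 turned, to 0.22.

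The 6 subunits of the MCM ring, each present once in the ring, differed by between -0.36 and 0.09. Mcm2 was 10.73, 10.29 and 10.56 in wild type and 10.35, 10.15 and 10.93 in knock-in samples, differing by -0.05 (95% interval -0.59 to 0.48). Its highest value was in a knock-in sample and its lowest in another. Mcm5 was 11.72, 11.36 and 11.65 against 11.42, 11.09 and 11.72, a difference of -0.16 (-0.61 to 0.28), which became 0.11 under 75th percentile scaling. Mcm6, with promoter words shown above, was 10.91, 10.44 and 10.52 against 10.81, 10.45 and 10.87, a difference of 0.09 (-0.33 to 0.50). Mcm4 and Mcm7 differed by 0.07 and -0.05, and their samples overlapped as well.

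Mcm3 had the widest interval of the 42 genes. It was 8.92, 7.98 and 8.86 in wild type and 8.58, 7.38 and 8.73 in knock-in samples, differing by -0.36 (95% interval -1.36 to 0.65, limma adjusted p = 0.951). The 2 samples of arrays 5 to 8 were low, and knock-in sample 3 was the lowest. In each run of 4 arrays the knock-in sample was lower, by -0.34, -0.60 and -0.13, and without knock-in sample 3 the difference was 0.07. The call was the same with the runs of 4 arrays as a term (limma adjusted p = 0.217).

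Among the genes that activate the helicase, Dbf4 stood apart in size. It was 9.11, 8.95 and 8.08 in wild type against 9.75, 9.77 and 9.59 in knock-in, that is 8.71 ± 0.56 against 9.70 ± 0.10 (mean ± SD, n = 3 each). All 3 knock-in samples were above all 3 wild type samples, and the wild type samples spread more. This was a difference of 0.99 ± 0.27 (SE), 1.98-fold (95% interval 1.27 to 3.10), which limma did not call (adjusted p = 0.297). It was 0.64, 0.82 and 1.51 within the 3 runs of 4 arrays, and with these runs as a term the adjusted p was 0.0891. Without wild type sample 5 the difference was 0.67, and over the other samples left out in turn it was 0.96 to 1.19. The other Dbf4 probes, both dimmer, differed by 0.46 and 0.48; they were above background on 3 and 1 of 6 wild type arrays and on 6 of 6 knock-in arrays each. They passed the filter on dim probes through the knock-in arrays, so their direction is no support for the brightest probe. Probes of a gene also share its transcripts and are not replicates. Treating the duplicates as a random block gave an adjusted p of 0.0104, and counting 12 arrays as 12 samples one of 0.00493, which ignores that the arrays are duplicates.

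Mitotic genes were higher beside Dbf4: of 12 measured from a list of 18, all 12 were higher in knock-in samples, with a median of 0.40. Of all genes, 41.6% were higher. Within the 3 runs of 4 arrays the median of the mitotic genes was 0.10, 0.51 and 0.73, so it was small in arrays 1 to 4. Of the 12, 9 were higher in all 3 runs, beside 16.3% of all genes. At an unadjusted limma p under 0.05, 6 of 12 were higher, beside 5.56% of all genes. The genotypes did not overlap for 6, all higher, beside 7.23% of all genes. By limma 0 mitotic genes were called without a term for the runs of 4 arrays and 2 with it (Ect2, adjusted p = 0.0476, and Ube2c, 0.0461). The shares of all genes called higher were 0.0852% without that term and 0.671% with it. The mean of the mitotic genes was 8.88, 8.43 and 8.43 in wild type and 9.08, 8.97 and 9.12 in knock-in samples. Their part in the Dbf4 difference was not tested. Cdc7, the kinase that Dbf4 activates, was 9.28, 9.17 and 8.27 in wild type and 9.16, 9.45 and 9.15 in knock-in samples, differing by 0.35 (95% interval -0.31 to 1.01). Like Dbf4 it was lowest in wild type sample 5, and without that sample the difference was 0.03. For Dbf4 the value without sample 5 was 0.67; the difference between these partners was not tested.

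The helicase cofactors showed no such separation. Cdc45, which binds the ring with GINS, was 9.06, 8.88 and 9.11 in wild type and 9.04, 9.06 and 9.18 in knock-in samples, differing by 0.07 (95% interval -0.17 to 0.32). Gins2 was 8.09, 8.14 and 8.43 against 7.83, 7.56 and 8.31, a difference of -0.32 (-0.82 to 0.18), lower in the knock-in sample of each run of 4 arrays. Its 2 other kept probes differed by -0.11 and -0.05. Gins1, Gins3 and Gins4, the other subunits of the same complex, differed by -0.10, 0.01 and 0.01. Mcm10, which helps the active helicase start, differed by 0.00 (-0.35 to 0.36).

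Of the primase and polymerase genes, Pold1 differed most. It was 9.80, 9.87 and 9.97 in wild type and 9.49, 9.36 and 9.58 in knock-in samples, 9.88 ± 0.09 against 9.47 ± 0.11 (mean ± SD, n = 3 each). Every knock-in sample lay below every wild type sample, and the difference of -0.41 ± 0.10 (SE) corresponds to a level 1.33-fold higher in wild type (95% interval 1.12 to 1.57). Limma did not call it (adjusted p = 0.270, and 0.109 with the runs of 4 arrays as a term). The difference was -0.31, -0.51 and -0.40 within the runs, between -0.46 and -0.35 with each sample left out, and -0.17 under 75th percentile scaling, under which the median over the members was 0.22. Pole, the catalytic subunit of polymerase epsilon, which copies the leading strand, differed by 0.02 (-0.26 to 0.29).

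The primase subunits differed in opposite directions. Prim1, the catalytic subunit, was 6.47, 6.26 and 6.44 in wild type and 6.61, 6.36 and 6.73 in knock-in samples, differing by 0.18 (95% interval -0.13 to 0.49). The Prim1 probe was dim, so this difference is understated. Over the settings with all samples it ran from 0.17 to 0.55. Prim2, the large subunit, was 8.16, 7.54 and 7.91 against 7.59, 7.37 and 7.86, a difference of -0.26 (-0.73 to 0.21). Their signs held within each run of 4 arrays, but both intervals include 0 and the genotypes overlapped. A second Prim2 probe differed by -0.12.

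Rfc2, the other lower gene, is 1 of the 5 subunits of replication factor C, which opens the clamp and places it on DNA. It was 10.77, 10.71 and 10.85 in wild type and 10.36, 10.35 and 10.54 in knock-in samples, 10.78 ± 0.07 against 10.42 ± 0.11 (mean ± SD, n = 3 each). The genotypes did not overlap, and wild type was 1.28-fold higher (95% interval 1.09 to 1.51), a difference of -0.36 ± 0.10 (SE, limma adjusted p = 0.297, and 0.118 with the runs of 4 arrays as a term). Its 3 other probes differed by -0.38, -0.37 and -0.49, all in the same direction, but probes of a gene share its transcripts and are not replicates. Within the runs of 4 arrays the difference was -0.41, -0.35 and -0.31. Under 75th percentile scaling it was -0.09, where the median over the members was 0.22. The partner subunits Rfc1, Rfc3, Rfc4 and Rfc5 differed by -0.03, -0.05, -0.10 and -0.13, and their samples overlapped.

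Pcna, the sliding clamp, was 8.42, 7.58 and 8.50 in wild type and 8.58, 7.98 and 8.95 in knock-in samples. The samples of arrays 5 to 8 were the lowest of each genotype, and the difference was 0.34 (95% interval -0.46 to 1.13). In each run of 4 arrays the knock-in sample was higher, by 0.16, 0.40 and 0.45, and the adjusted p went from 0.932 to 0.175 with these runs as a term. Fen1, the nuclease that trims Okazaki fragments, was 11.86, 11.14 and 11.40 against 11.92, 11.63 and 12.11, a difference of 0.42 (-0.10 to 0.94, limma adjusted p = 0.710). It too was higher in each run, by 0.05, 0.49 and 0.71. Lig1, the ligase that seals the fragments, differed by -0.02 (-0.51 to 0.46), and its 3 other probes by between -0.09 and 0.09.

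The subunits of RPA, which coats single-stranded DNA, differed by -0.03 for Rpa1, 0.07 for Rpa2 and -0.04 for Rpa3. Dimmer Rpa2 probes differed by 0.21 and 0.32. None of the 3 genes had an interval that excluded 0.

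Nucleotide supply genes were 4 of 4 higher, with no gene separated between genotypes. Rrm2, the small subunit of ribonucleotide reductase that limits its activity in S phase, was 10.02, 9.11 and 9.42 in wild type and 9.91, 9.82 and 10.00 in knock-in samples, differing by 0.39 (95% interval -0.15 to 0.94, limma adjusted p = 0.758). Wild type sample 1 was the highest of the 6 and samples 4 and 5 the lowest. Its other probes differed by -0.01 and 0.10, so the probes disagreed. Rrm1, the large subunit of the same enzyme, differed by 0.05 (-0.38 to 0.47), and by 0.28 on its second probe.

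Tyms, thymidylate synthase, was 10.65, 10.24 and 10.39 in wild type and 10.76, 10.30 and 11.03 in knock-in samples, differing by 0.27 (95% interval -0.23 to 0.77). The second brightest of its 5 probes differed by 0.26, and the 3 dim ones by between -0.04 and 0.12. Tk1, the salvage kinase for thymidine, was 11.52, 11.19 and 11.34 against 11.39, 11.21 and 11.70, a difference of 0.09 (-0.29 to 0.46). Most of the positive median of this group came from arrays 9 to 12: its median was -0.10, 0.04 and 0.46 within the 3 runs of 4 arrays.

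**Figure D4:**
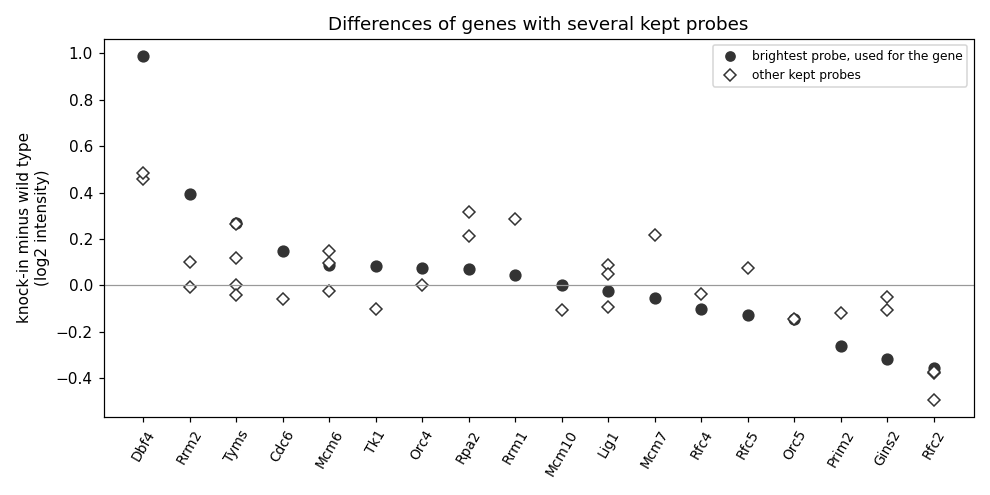
Knock-in minus wild type (log2 intensity) for the 18 genes with more than 1 probe kept, 49 probes in all, ordered by the brightest probe (filled). All 4 probes of Rfc2 lie below 0, while those of Cdc6, Lig1, Mcm6, Mcm7, Mcm10, Rfc5, Rrm2, Tk1 and Tyms fall on both sides of 0.

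The other lists of the same pathway gave 0 called genes in either direction by limma, and with the runs of 4 arrays as a term 1 gene, Ccne2, was called higher. The shares of all genes called higher were 0.0852% without that term and 0.671% with it. Of the other polymerase subunits 6 of 7 were measured, with 2 higher and a median of -0.11. The delta subunits Pold4 and Pold2 and the alpha subunit Pola2 had the smallest p and differed by -0.44 ± 0.14, -0.28 ± 0.12 and -0.21 ± 0.17 (SE), with limma adjusted p of 0.359, 0.606 and 0.90. The last delta subunit, Pold3, differed by -0.01. Of the delta subunits, Pold1 and Pold4 had samples that did not overlap between genotypes, and those of Pold2 and Pold3 overlapped. Of all genes, 13.7% had samples that did not overlap, and 6.47% were lower in this way. Limma called neither Pold1 (adjusted p = 0.270) nor Pold4 (0.359). Pold3 is named only to complete the delta subunits, which were not tested as a set.

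Licensing regulators and origin firing genes were 12 of 19 higher with a median of 0.10. The smallest p belonged to Ccne2, which encodes cyclin E2, at 1.52 ± 0.28, Cdk1, the mitotic kinase, at 0.66 ± 0.24, and Cul4a, the scaffold of the ligase that destroys Cdt1, at -0.56 ± 0.21 (limma adjusted p = 0.141, 0.475 and 0.50). With the runs of 4 arrays as a term Ccne2 rose (limma adjusted p = 0.0302), by 1.25, 1.46 and 1.85 within them. Fork accessory, chromatin assembly and topoisomerase genes were 13 of 22 higher with a median of 0.08. Their smallest p were those of Ung, a uracil-DNA glycosylase, at -0.67 ± 0.14, Asf1a, a histone chaperone, at 0.28 ± 0.10, and Chtf18, a subunit of an alternative clamp loader, at -0.38 ± 0.16 (limma adjusted p = 0.180, 0.431 and 0.591). Other nucleotide synthesis and salvage genes were 5 of 26 higher with a median of -0.14. They were led by Mthfd2, a mitochondrial folate enzyme, at 1.07 ± 0.22, Gart, of purine synthesis, at -0.32 ± 0.10, and Dtymk, the thymidylate kinase downstream of Tyms and Tk1, at -0.38 ± 0.13 (limma adjusted p = 0.173, 0.366 and 0.419).

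Outside these lists, the genes whose values over the 6 samples were most like the mean of the 42 members were Rmc1, Nxpe4 and Snapc1, with Pearson r of 0.99, 0.99 and 0.98 over 6 samples. They were picked as the highest of all other genes tested, so r is a description with no test, and they differed between genotypes by 0.16, 0.04 and 0.03.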

How the data were processed

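Per the labels' protocols, biotinylated cRNA was put on bead arrays from Illumina. The submitters' processing notes list GenomeStudio with no version. The main table, deposited by the authors as not normalized, holds intensity values, of which 33.1% to 37.0% per array lie below 0, so a background had been subtracted. A second deposited intensity table, scaled by the authors in a way not given in the sources used here, served as an alternative.

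Intensities were corrected by normexp (offset 50), quantile-normalized and taken to log2 with limma 3.58.1 in R 4.3.3, so folds of dim genes are understated. The background limit of each array was the 0.9 quantile of its mirrored negative values, 6.6 to 7.7 units, and 16894 probes above it on at least 6 arrays were kept. Probe names came from GEO's platform annotation: 34885 probes had 1 symbol, 18 several and 10378 none. A gene is its brightest kept probe. Adjacent arrays correlated at 0.852 to 0.941 after centring, other arrays of a genotype at -0.40 to 0.19, and each pair was averaged. Genes were tested with lmFit and eBayes, threshold 0.05 after Benjamini-Hochberg adjustment. The members, lists and tests were chosen with earlier results of these data known. Named are all members and the 3 genes most like the members. For each other list of the pathway, the genes that pass or the 3 with the smallest p are named. Mitotic genes and B lineage, mast cell and basophil markers are named where the fit with the runs of 4 arrays as a term called them. Other markers are named as examples. Values per sample are given for the 3 smallest p of each role group and for Orc1, Cdc6, Cdt1, Gmnn, Mcm2, Cdc45, Pcna and Rrm2. The limma fit was also run on simulated data of 6 independent samples. That simulation held no duplicate arrays and no runs of arrays, so it cannot show how the fit handles them. Figures used matplotlib 3.10.9.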

Additional observations from a re-analysis of the deposited data

How the results depend on the processing

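The 8 genes called over all genes became 15 without background correction, 17 with the authors' values, 44 with array quality weights, 16 with trend and robust eBayes, 860 with 12 arrays as 12 samples, 283 with duplicates as a random block and 88 with runs of 4 arrays as a term; they ranged from 0 to 11 with an array or sample left out. Members called higher were 1 (Dbf4) with 12 arrays as samples and 1 with duplicates as a random block, and members called lower were 2 (Pold1 and Rfc2) with 12 arrays as samples. In the other settings with a test, 0 members were called.

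Under 75th percentile scaling the median difference was 0.22 for all members, 0.25 for helicase activation, 0.0069 for primase and polymerases and 0.46 for nucleotide supply; the cause was not tested. The origin group stood at 0.26 with the authors' values, and primase and polymerases at 0.016 without the filter, which adds Pola1. Within arrays 1 to 4 the medians were -0.19 for helicase activation, -0.27 for primase and polymerases and -0.10 for nucleotide supply, and within arrays 9 to 12 they were 0.31, 0.10 and 0.46, with 0.25 for all members and 0.22 for the clamp group. Members with small differences changed sign in several settings, and none of these genes was called there. The 75th percentile turned Cdt1 to 0.22, Mcm2 to 0.22, Mcm5 to 0.11, Mcm7 to 0.21, Gins1 to 0.066, Rfc1 to 0.11, Rfc4 to 0.13, Rfc5 to 0.063, Rpa1 to 0.25, Rpa3 to 0.18 and Lig1 to 0.26. Cyclic loess turned Cdt1 to 0.019, Mcm2 to 0.019, Mcm7 to 0.0055, Rpa1 to 0.049, Rpa3 to 0.0012 and Lig1 to 0.052. Array quality weights turned Mcm4 to -0.059, Mcm10 to -0.13, Gins3 to -0.00602, Gins4 to -0.075 and Pole to -0.092. The mean of a gene's probes turned Mcm7 to 0.081, Mcm10 to -0.052, Lig1 to 0.00497 and Tk1 to -0.0087. With an array or sample left out, these genes crossed 0: Orc3 from -0.034 to 0.12, Orc5 from -0.33 to 0.052, Cdc6 from -0.035 to 0.34, Cdt1 from -0.24 to 0.082, Mcm2 from -0.28 to 0.11, Mcm3 from -0.66 to 0.069, Mcm4 from -0.17 to 0.26, Mcm6 from -0.0042 to 0.23, Mcm7 from -0.22 to 0.096 and Mcm10 from -0.099 to 0.11. So did Gins1 from -0.25 to 0.075, Gins3 from -0.047 to 0.069, Gins4 from -0.15 to 0.20, Pole from -0.071 to 0.097, Rfc1 from -0.26 to 0.14, Rfc3 from -0.12 to 0.046, Rfc4 from -0.23 to 0.12, Rpa1 from -0.11 to 0.098, Rpa2 from -0.073 to 0.33, Rpa3 from -0.18 to 0.12, Lig1 from -0.17 to 0.18, Rrm1 from -0.031 to 0.19 and Tk1 from -0.048 to 0.20. The replicate numbers in the labels are not shared between genotypes and could not serve as a block; the runs of 4 adjacent arrays, each with 1 sample of either genotype, were the block in their place.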
